A study of Homo sapiens with 8 samples.

Results

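The genes described are 8 of the 56632 genes in the table, those for lipid uptake and handling: FABP4, FABP5, PPARG, CD36, PLIN2, ANGPTL4, LPL and ACSL1. They were taken as a fixed list of symbols, and all 8 were found by Ensembl identifier and passed the filter on low counts. FABP4 was chosen by its measured values, a large difference between M1 and M2 cells and between the M1 libraries themselves, so its levels are given as a description with no test. The other 7 were added for their function, and counts of called genes run over these 7.

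Fatty acids reach an epithelial cell bound to albumin or packed in lipoproteins, from which lipases on the cell surface or in the circulation release them. CD36 helps them cross the membrane, acyl-CoA synthetases trap them inside, fatty acid binding proteins carry them through the cytosol, and perilipins coat the droplets in which they are stored. PPARG is a nuclear receptor that fatty acids activate, binds DNA together with RXR, and is best known as the master regulator of adipocytes; FABP4, CD36, LPL, ANGPTL4, PLIN2 and ACSL1 are among its well known target genes in adipocytes or macrophages.

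RNA-seq was performed on 4 related human mammary epithelial cell lines grown as acini in Matrigel, 2 biological replicates of each and 8 libraries in all. M1 is MCF10A, an immortalized line that forms no tumors. M2 (MCF10AT1k.cl2) came from M1 by transfection of activated HRAS and passage as a xenograft, and M3 (MCF10Ca1h) and M4 (MCF10CA1a.cl1) came from carcinomas that arose in xenografts of M2. All 4 lines had the same serum-containing medium with hydrocortisone, cholera toxin and insulin and were harvested on day 8, but only M1 and M2 received EGF, at 10 ng/ml. Line and medium therefore change together between M1 or M2 and M3 or M4, and their shares in a difference cannot be told apart; only M2 against M1 and M4 against M3 compare lines in the same medium. The names of M2 and M4 mark single clones, so a difference between lines is one between these isolates.

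The assignment of a pair of libraries is in doubt. Expression values tabulated by the study carry the library labelled M1 replicate 2 in this series under the name of the M2 line, and the library labelled M2 replicate 1 under that of M1. The sample labels are used here, and the values with those libraries exchanged are given beside the results. The M2 libraries as labelled were the most alike pair, with a Spearman's rho of 0.998 across 13495 genes against 0.971 for the M1 pair, 0.977 for M3 and 0.986 for M4. The numbering of the libraries in the deposited counts runs through the lines in order for each replicate only with that pair exchanged. Which assignment is right was not tested. M4 against M3 contains neither library of the pair in doubt. The exchange enters that comparison only through the spread shared by all lines.

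Library totals ran from 69669945 to 107350288 counts. HRAS, the transgene of M2, stood at 154.1 and 139 CPM (M1), 160 and 153.5 (M2), 269 and 327 (M3) and 335 and 352 (M4), CPM being counts per 1000000 of the library's TMM-scaled total, so that it separated M3 and M4 but not M2 from M1. The basal keratin and epithelial markers summed to between 6346 and 14399 CPM per library. Of 5 adipocyte markers, ADIPOQ was at 0 in all 8 libraries, LEP was at 2 counts in M1 replicate 1 and at 0 in the others, and the summed level ran from 0.241 to 0.659 CPM in 7 libraries and reached 2.20 CPM in M1 replicate 1. Of the macrophage markers, AIF1 was at 0 in every library, and PTPRC and CD163 had at most 3 counts in any, whereas CD14 and CSF1R had from 83 to 2271 counts. Of 5 endothelial markers PECAM1 was not matched, and the other 4 summed to at most 3.21 CPM. Fewer cells that make a transcript and less of it per cell cannot be told apart in these bulk samples.

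FABP4 (ENSG00000170323, minus strand of chromosome 8, 82390654 to 82395471, GRCh37) encodes the adipocyte fatty acid binding protein, which carries fatty acids in the cytosol and is also secreted. It was at 94.98 CPM in M1 replicate 1 and 4.29 in M1 replicate 2, at 0.422 and 0.398 (M2), 0.0126 and 0.0115 (M3) and 0.0617 and 0.0769 (M4). M1 replicate 1 stood far above everything else, and M1 replicate 2 still lay above all the M2, M3 and M4 libraries. In counts these were 7859 and 352 (M1), 43 and 28 (M2), 1 and 1 (M3) and 7 and 6 (M4), so that the M3 values rest on a single count each. The fold between M1 and M2 depended on the M1 library taken as reference. The mean of M2 was 232-fold below M1 replicate 1 and 10.5-fold below M1 replicate 2. The mean of M3, with 1 count per library, was 7878-fold below M1 replicate 1 and 356-fold below M1 replicate 2. Summed over replicates the ratio of M1 to M3 was 4144, of which M1 replicate 1 holds most of the counts, and its 95% exact (Clopper-Pearson) interval of 1147 to 34224 covers counting error only, not that gap between the M1 libraries. With the libraries in doubt exchanged, M1 would hold the values 94.98 and 0.422 and M2 the values 4.29 and 0.398, and the lines would overlap.

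**Figure D1:**
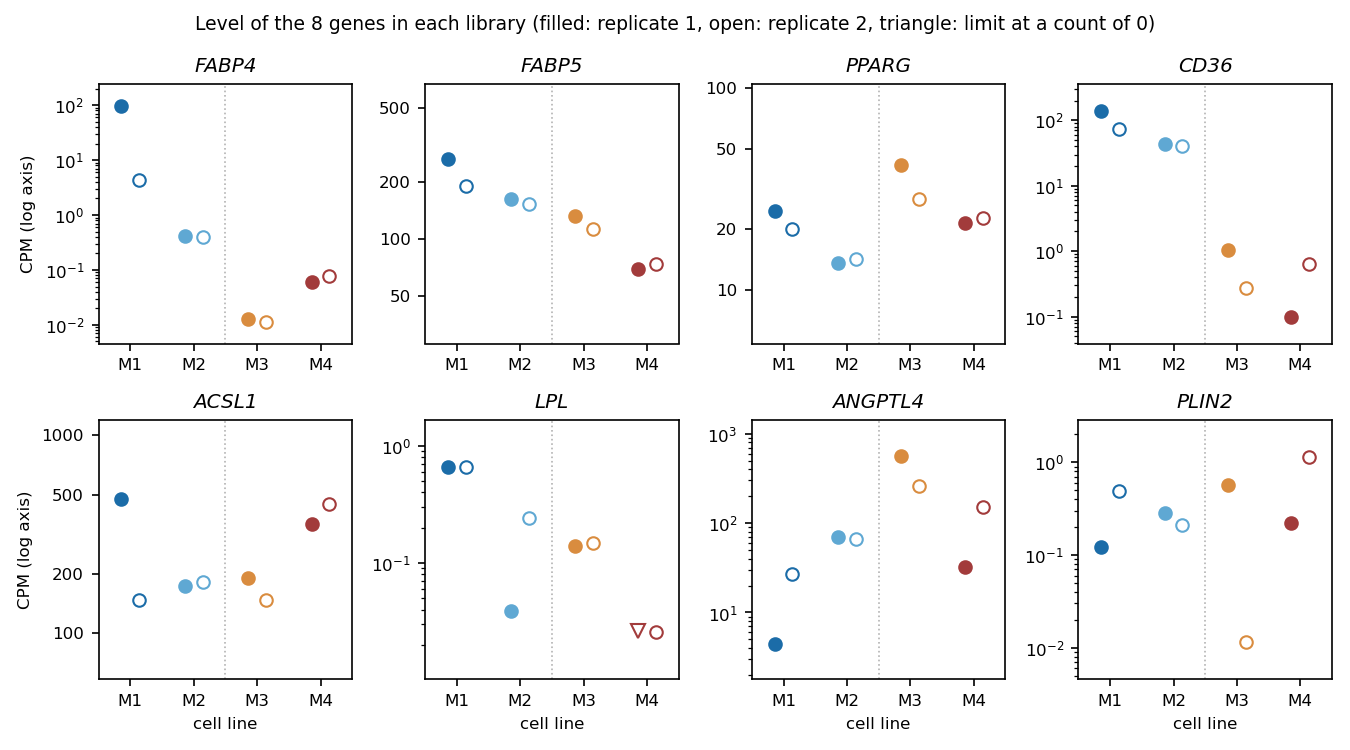
Level of each of the 8 genes in CPM (log axis) by cell line; filled points are replicate 1, open points replicate 2, the triangle is the limit that a count of 0 allows, and the dotted line parts the lines grown with EGF (left) from those without (right). FABP4, FABP5 and CD36 were higher in all 4 libraries of M1 and M2 than in any of M3 and M4, and FABP4, ACSL1 and ANGPTL4 were far apart between the M1 replicates.

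FABP5 (ENSG00000164687), the epidermal fatty acid binding protein and the close relative of FABP4 in epithelia, lies on the plus strand of the same chromosome from 82192771 to 82197012. Its level was 266 and 193 CPM (M1), 163 and 154.1 (M2), 133 and 112 (M3) and 69.4 and 74.0 (M4). As labelled, the lines followed each other in that order with no overlap. With the libraries in doubt exchanged, M1 would hold 266 and 163 CPM and M2 193 and 154.1, and these lines would overlap. No pair of neighbours passed the threshold. Here and below the threshold is an adjusted p under 0.05 with a log2 fold change above 1 in size (edgeR's quasi-likelihood test over 18431 genes). FABP5 fell by 1.68 ± 0.18 on the log2 scale in M4 against M1 (SE, adjusted p = 0.000773) and by 1.14 ± 0.18 in M4 against M2 (SE, adjusted p = 0.00506). The difference of M4 from M3, in the same medium, was -0.77 (adjusted p = 0.0267), under the limit on the fold, and that of M3 from M1 was -0.90 (adjusted p = 0.0124). Both calls were kept with the libraries exchanged, at -1.58 against M1 and -1.27 against M2; that against M2 was lost without M2 replicate 1. FABP5 shares reads with processed copies of itself: its 15 annotated pseudogenes took from 5.86% to 9.81% of the counts of FABP5 and pseudogenes together, and reads that the counting split among them make its level uncertain. An antisense transcript, LNMICC, shares 80 bp of exon with FABP5 and had from 5 to 47 counts.

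In M2, where FABP4 was low, FABP5 was still abundant. Different genes were set beside each other per kilobase of annotated exon, merged over all transcripts of a gene. This length ran from 1369 bp for FABP4 to 11981 bp for PPARG. It can exceed the length of the transcripts made, by a different factor for each gene, so the order is approximate. On this scale FABP5 was the highest of the 8 genes in M1 at 120.5 ± 27.3 CPM per kb (SD, n = 2). It was followed by ACSL1 at 48.0 ± 35.9, FABP4 at 36.3 ± 46.8, CD36 at 9.81 ± 4.46, ANGPTL4 at 6.33 ± 6.39, PPARG at 1.87 ± 0.283, LPL at 0.159 ± 0.00104 and PLIN2 at 0.0607 ± 0.0518 CPM per kb. From ACSL1 down to PPARG each gene overlapped the next over the 2 libraries. In M2 the per kilobase levels were 83.2 ± 3.19 for FABP5 and 0.2996 ± 0.0125 for FABP4. In M4 the order was led by ACSL1 at 62.1 ± 10.5 and FABP5 at 37.7 ± 1.71, followed by ANGPTL4 at 36.9 ± 33.7, whose libraries lay on either side of FABP5.

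PPARG (ENSG00000132170, plus strand of chromosome 3, 12328867 to 12475855) did not follow FABP4. Its level was 24.8 and 19.99 CPM (M1), 13.6 and 14.2 (M2), 41.7 and 28.4 (M3) and 21.6 and 22.8 (M4). As labelled, M2 was the lowest line and M3 the highest, with M4 among the M1 values. On exchange M1 would hold 24.8 and 13.6 CPM and M2 19.99 and 14.2, and these lines would overlap. The gene rose in M3 against M2, with a log2 fold change of 1.33 ± 0.21 (SE, adjusted p = 0.0140 from edgeR). The remaining differences did not pass the threshold: -0.69 in M2 against M1 (adjusted p = 0.105), 0.65 in M3 against M1 (adjusted p = 0.0618), -0.01 in M4 against M1 (adjusted p = 0.968), 0.67 in M4 against M2 (adjusted p = 0.0541) and -0.66 in M4 against M3 (adjusted p = 0.0667). The M3 call was lost with the libraries exchanged, where the change was 1.04, and without either M2 library. In M3, the line with the highest PPARG level, FABP4 had 1 count per library. The part of PPARG in the level of FABP4 was not tested.

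Among the 12 tested genes for PPAR and RXR receptors and their coregulators, 0 were called in M2 against M1 by edgeR or DESeq2. At an unadjusted p under 0.05 were 2 by edgeR and 3 by DESeq2, beside 4303 of the 18431 genes by edgeR. By edgeR, 1 rose and 1 fell in M4 against M1, and 1 fell in M4 against M3. The shares of all genes called by edgeR in these comparisons were 3.37%, 20.7% and 10.3%, in that order. The median log2 change of the list in M4 against M1 was -0.25, beside -0.02 over all genes tested. PPARD, the widely expressed receptor of the family, was the gene that rose: it stood at 19.7 and 29.9 CPM (M1), 32.2 and 30.0 (M2), 61.4 and 70.8 (M3) and 89.8 and 79.8 (M4), a log2 fold change of 1.77 ± 0.21 in M4 against M1 (SE, adjusted p = 0.00108). In PPARD, 1 of the 12 genes, every M3 and M4 library lay above every M1 and M2 library, beside 10.6% of all genes. Of the 12, 2 were separated the other way, beside 9.25%. PPARGC1A, the coactivator that drives mitochondrial gene expression, fell. Its level was 19.2 and 27.9 CPM (M1), 12.8 and 15.0 (M2), 3.42 and 7.07 (M3) and 0.0352 and 0.0384 (M4), where it had 4 and 3 counts. Its log2 fold change was -7.11 ± 0.53 in M4 against M3 (SE, adjusted p = 0.000998) and -9.27 ± 0.55 against M1 (SE, adjusted p = 0.000115). Both genes kept their calls with the libraries exchanged. PPARA, the receptor of oxidative tissues, was at 14.6 to 25.0 CPM throughout.

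CD36 (ENSG00000135218, plus strand of chromosome 7, 79998891 to 80308593), the scavenger receptor that takes up fatty acids, showed the largest called changes of the 7 genes. Its level was 141 and 72.5 CPM (M1), 42.8 and 41.1 (M2), 1.05 and 0.276 (M3) and 0.0969 and 0.628 (M4). The lowest library with EGF was 39.2-fold above the highest without. CD36 fell by 7.35 ± 0.88 on the log2 scale in M3 against M1 (SE, adjusted p = 0.00251) and its log2 fold change in M3 against M2 was -5.997 ± 0.84 (SE, adjusted p = 0.0107). In M4 the changes were -8.30 ± 0.93 against M1 (SE, adjusted p = 0.00115) and -6.95 ± 0.89 against M2 (SE, adjusted p = 0.00296). Within a medium the differences did not pass the threshold, -1.35 ± 0.66 in M2 against M1 (SE, adjusted p = 0.271) and -0.95 ± 0.87 in M4 against M3 (SE, adjusted p = 0.481). All 4 calls were kept with the libraries exchanged, with changes from -8.05 to -6.43; those against M2 held in M4 without either M2 library but in M3 only with both. The M4 libraries were 6.48-fold apart and the M3 libraries 3.81-fold, at low counts.

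Of the 7 genes other than FABP4, FABP5 and CD36 were higher in every M1 and M2 library than in every M3 and M4 library, as were 9.25% of all tested genes, and 0 were separated the other way, beside 10.6% of all genes. This separation is the same whether or not the libraries in doubt are exchanged. FABP4 was also separated, with its lowest M1 or M2 library 5.18-fold above its highest M3 or M4 library. For FABP5 that ratio was 1.16. Among the fatty acid binding proteins, FABP6, the ileal bile acid binding protein, was separated too. Its level was 1.32 and 2.43 CPM (M1), 2.75 and 2.97 (M2), 0.202 and 0.161 (M3) and 0.0264 and 0.167 (M4). FABP6 fell by 4.34 ± 0.75 on the log2 scale in M4 against M1 (SE, adjusted p = 0.00488), at no more than 280 counts in any library. The other 7 genes of that list of 10 were too low to be tested. FABP4 aside, the tested genes of the list were FABP5 and FABP6. Both were called lower in M4 against M1, beside 11.2% of all tested genes.

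ACSL1 (ENSG00000151726, minus strand of chromosome 4, 185676749 to 185747972), the long-chain acyl-CoA synthetase that activates fatty acids on entry, was abundant everywhere. Its level was 477 and 147.1 CPM (M1), 174 and 183 (M2), 191 and 147.2 (M3) and 356 and 452 (M4). As labelled, the M1 libraries spanned the whole range of the other 6, and M4 lay above M2 and M3. On exchange M1 would hold 477 and 174 CPM and M2 147.1 and 183. ACSL1 passed the threshold in none of the 6 comparisons by edgeR. Its largest changes were 1.26 ± 0.47 in M4 against M3 (SE, adjusted p = 0.112) and 1.18 ± 0.47 in M4 against M2 (SE, adjusted p = 0.116), both of which DESeq2 called. Its direction against M1 turned with the M1 library used. The mean of M2 was 2.67-fold below M1 replicate 1 and 1.21-fold above M1 replicate 2.

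Of the 13 tested genes for fatty acid uptake and activation, edgeR called 1 in M2 against M1, 4 in M4 against M1 and 4 in M4 against M3, all lower, beside 1.11%, 11.2% and 6.30% of all genes called lower. DESeq2 called 1, 4 and 6, and those in M4 against M3 included ACSL1, which was higher. With the libraries exchanged the edgeR calls were 0, 3 and 1, beside 0%, 8.46% and 4.50% of all genes. At an unadjusted p under 0.05 were then 1, 5 and 8, beside 315, 5042 and 4419 of the 18431 genes. ACSF2, a mitochondrial acyl-CoA synthetase, was the largest fall, among genes with at least 100 counts in each library of the higher line and apart from CD36, in all 3 comparisons. Its level was 72.8 and 56.7 CPM (M1), 15.5 and 14.7 (M2), 29.5 and 19.9 (M3) and 4.09 and 2.22 (M4). Its log2 fold change was -2.10 ± 0.31 in M2 against M1 (SE, adjusted p = 0.0130) and -2.96 ± 0.33 in M4 against M3 (SE, adjusted p = 0.00267). The M2 change was -0.31 with the libraries exchanged and lost its call, as did that in M4 against M3. In M4 against M1, where CD36, SLC27A3 and ACSL5 also fell, the change of ACSF2 was -4.35 ± 0.35 (SE, adjusted p = 0.000264), and its call was kept on exchange. The medians of this list were -0.01 in M2 against M1, -0.54 in M4 against M1 and -0.95 in M4 against M3, beside -0.04, -0.02 and -0.02 over all genes.

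LPL (ENSG00000175445, plus strand, 19759228 to 19824770, on the chromosome of FABP4), the lipase that frees fatty acids from circulating lipoproteins, was close to the limit of detection. It had 54 and 54 counts (M1), 4 and 17 (M2), 11 and 13 (M3) and 0 and 2 (M4), or 0.653 and 0.659 CPM in M1 and from 0.0393 to 0.242 in M2 and M3. The count of 0 in M4 replicate 1 allows up to 0.0264 CPM. As labelled, M1 lay above all the other lines. With the libraries in doubt exchanged, M1 would have 54 and 4 counts and M2 54 and 17, and this order would be lost. LPL was called lower in M4 against M1 (adjusted p = 0.0122 from edgeR). Summed over replicates M1 was 62.8-fold above M4, with an exact 95% interval of 17.0 to 525 for counting error only. The call was lost without M4 replicate 1 and with the libraries exchanged. The differences of M2 from M1, -2.26 (adjusted p = 0.212), and of M3 from M1, -2.17 (adjusted p = 0.144), did not pass.

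ANGPTL4 (ENSG00000167772), the secreted inhibitor of LPL, is induced by PPARs, by fasting and by hypoxia. It lies on the plus strand of chromosome 19, from 8428173 to 8439254 in GRCh37. Its level was 4.50 and 26.9 CPM (M1), 69.7 and 67.2 (M2), 569 and 263 (M3) and 32.4 and 150.5 (M4). As labelled, M3 stood above all other libraries, M1 below all others, and the M4 libraries on either side of M2. On exchange M1 would hold 4.50 and 69.7 CPM and M2 26.9 and 67.2, so that M1 would overlap M2 and M4. ANGPTL4 rose in M3 against M1, with a log2 fold change of 4.73 ± 1.05 (SE, adjusted p = 0.0202 from edgeR). The mean of M3 was 92.5-fold above M1 replicate 1 and 15.5-fold above M1 replicate 2. The call was lost with only M1 and M3 fitted, without M3 replicate 1 and with the libraries exchanged, where the change was 3.49. Other differences did not pass by edgeR, though DESeq2 called that of M4 from M1: 2.13 ± 0.94 in M2 against M1 (SE, adjusted p = 0.226), 2.54 ± 0.95 in M4 against M1 (SE, adjusted p = 0.0804), 2.60 ± 0.95 in M3 against M2 (SE, adjusted p = 0.163) and -2.19 ± 0.93 in M4 against M3 (SE, adjusted p = 0.148). The 250 bases before its start are shown because ANGPTL4 and PLIN2 are the members with a single annotated start and the core of the hypoxia response element, ACGTG, in this window. The sequence is RefSeq's (GRCh38.p14, chr19:8363905-8364154, plus strand), 5′ to 3′, with the motif on either strand in capitals. The match begins at -234 from the start.
ANGPTL4: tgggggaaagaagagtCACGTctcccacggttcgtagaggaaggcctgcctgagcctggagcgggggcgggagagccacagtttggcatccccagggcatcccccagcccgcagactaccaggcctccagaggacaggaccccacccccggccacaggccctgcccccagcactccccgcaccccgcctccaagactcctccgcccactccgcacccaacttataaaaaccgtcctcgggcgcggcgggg

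PLIN2 (ENSG00000147872, minus strand of chromosome 9, 19108373 to 19149288), the perilipin found on the lipid droplets of most cells, was close to absent from the counts. Whether this low level, and with it its last place per kilobase in M1, is a property of the cells or of the counting was not tested. It had 10 and 40 counts (M1), 29 and 15 (M2), 45 and 1 (M3) and 25 and 89 (M4), which was 0.0115 to 1.14 CPM. All 4 lines overlapped. The replicates differed by more than the lines did, 49.5-fold in M3 and 5.18-fold in M4, and its fitted changes, from -0.28 to 1.43, had standard errors of 1.34 to 1.36. PLIN2 passed the threshold in none of the 6 comparisons, at a level where a change of several-fold was not detectable. The related coat protein PLIN3 was at 130 to 183 CPM. The same 250 bases of PLIN2 (GRCh38.p14, chr9:19127493-19127742, minus strand) held the motif at -120, -69 and -68, the last pair being a palindrome read on both strands.
PLIN2: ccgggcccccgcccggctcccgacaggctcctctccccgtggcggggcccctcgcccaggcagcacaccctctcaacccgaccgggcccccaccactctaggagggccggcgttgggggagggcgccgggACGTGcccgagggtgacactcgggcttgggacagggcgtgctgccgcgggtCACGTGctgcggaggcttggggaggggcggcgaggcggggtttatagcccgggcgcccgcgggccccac

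RefSeq's promoter table matched 5 of the 8 genes, ACSL1, ANGPTL4, CD36, PLIN2 and PPARG, with 19 annotated starts among them. ACGTG was present on either strand in 3 of these 19 windows, of ANGPTL4, PLIN2 and PPARG, and in 18.5% of all 35116 windows of 250 bases. The direct repeat that PPAR and RXR bind, searched as AGGTCANAGGTCA with no mismatch, was in 0 of the 19 and in 0.0171% of all windows. Its half-site AGGTCA, which the direct repeat contains, was in 3 of the 19, all of PPARG, and in 12.1% of all. These are matches of letters in a short window and say nothing of binding.

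Counted over the 7 genes, the comparisons of M3 and M4 with M1 and M2 held all the calls. In M2 against M1, 0 of 7 were called by edgeR and 0 by DESeq2, with 3 at an unadjusted p under 0.05 (FABP5, PPARG and LPL); 3.37% of all tested genes were called, 2.26% higher and 1.11% lower. In M3 against M1, 1 gene was called higher (ANGPTL4) and 1 lower (CD36), beside 13.5% of all genes, 8.02% higher and 5.51% lower. In M4 against M1, edgeR called 0 higher and 3 lower (FABP5, CD36 and LPL), with 4 at an unadjusted p under 0.05, and DESeq2 also called ANGPTL4 higher, beside edgeR calls for 20.7% of all genes, 9.48% higher and 11.2% lower. In M3 against M2, 1 was called higher (PPARG) and 1 lower (CD36), beside 4.15% of all genes, 2.95% higher and 1.20% lower. In M4 against M2, edgeR called 0 higher and 2 lower (FABP5 and CD36), with 5 at an unadjusted p under 0.05, and DESeq2 also called ACSL1 higher, beside edgeR calls for 13.9% of all genes, 6.98% higher and 6.94% lower. In M4 against M3, 0 of 7 were called by edgeR, with 4 at an unadjusted p under 0.05 (FABP5, PPARG, LPL and ACSL1), and DESeq2 called 1, ACSL1; 10.3% of all genes were called, 3.99% higher and 6.30% lower. Over all 18431 genes edgeR gave an unadjusted p under 0.05 to 4303 in M2 against M1 and 7960 in M4 against M1. In M4 against M2 these were 6884, and in M4 against M3 6229. Comparisons that share a line share its libraries and are not independent. With the libraries in doubt exchanged, the calls among the 7 were 0 in M2 against M1 and 0 in M4 against M3, with 0 and 2 at an unadjusted p under 0.05, 1 in M3 against M1, 2 in M4 against M1, 1 in M3 against M2 and 2 in M4 against M2. The shares of all genes called were then 0%, 4.50%, 1.19%, 8.46%, 1.16% and 10.2% in that order. Of the 18431 genes, 315 in M2 against M1 and 4419 in M4 against M3 then had an unadjusted p under 0.05. Every call named here for M2 against M1, in these genes or in the lists, was lost on the exchange.

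**Figure D2:**
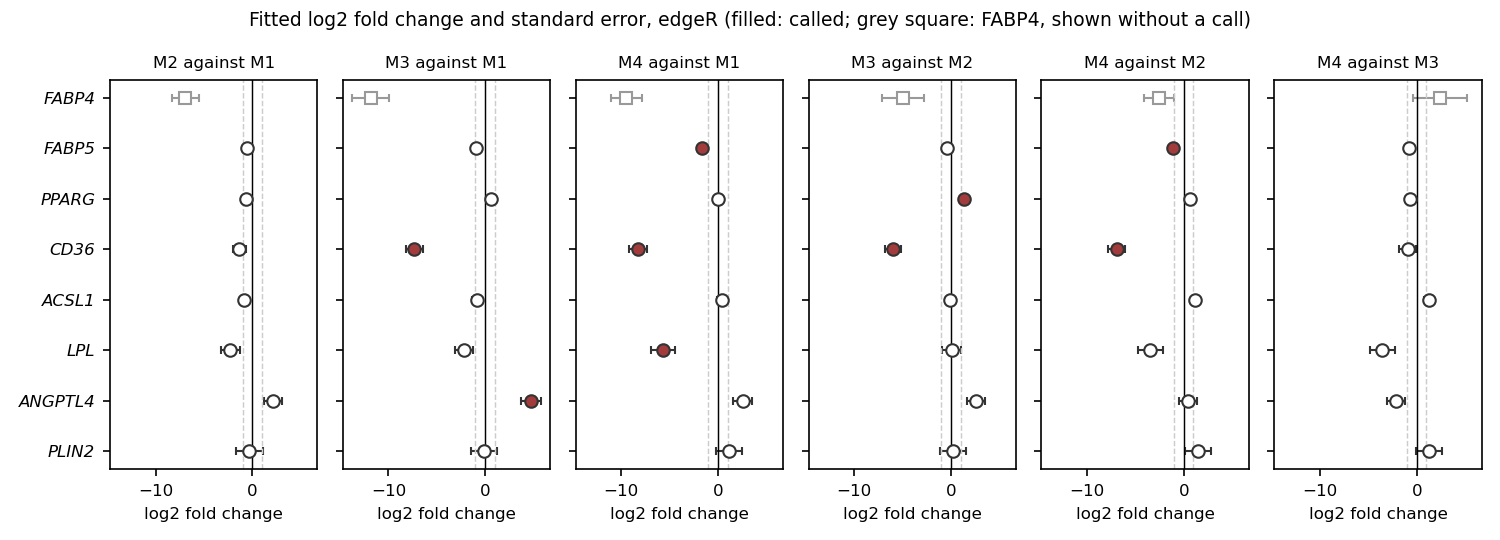
Fitted log2 fold change of each gene in the 6 comparisons, with its standard error from edgeR as bars; filled points passed the threshold, the dashed lines mark a log2 fold change of 1 in either direction, and the grey squares are FABP4, shown without a call. CD36 lay between -8.30 and -5.997 wherever M3 or M4 was set against M1 or M2, and 0 of the 7 other genes were called where the lines shared a medium.

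The M1 libraries differed from each other in several of these genes. FABP4, chosen partly for this gap, was 22.1-fold higher in replicate 1. Over the 13310 genes with at least 100 counts in either M1 library the median gap was 1.20-fold and the 95th percentile 2.95-fold. ACSL1 was 3.24-fold and CD36 1.95-fold higher in replicate 1, with gaps as large in 4.38% and 10.7% of genes. ANGPTL4 went the other way, 5.97-fold higher in replicate 2, a gap matched by 2.01% of genes. FABP5, at 1.38-fold, and PPARG, at 1.24-fold, differed no more than many genes did. LPL was at 54 counts in each. Of the 5 members other than FABP4 with at least 100 counts in M1, 1 was thus more than 2-fold higher in replicate 1, ACSL1, beside 4.61% of all genes, and 1 was more than 2-fold higher in replicate 2, ANGPTL4, beside 5.51%. In M2 the largest gap among FABP5, PPARG, CD36, ANGPTL4 and ACSL1 was 1.06-fold. In M4 it was 4.64-fold, for ANGPTL4, a gap matched by 0.801% of genes there.

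**Figure D3:**
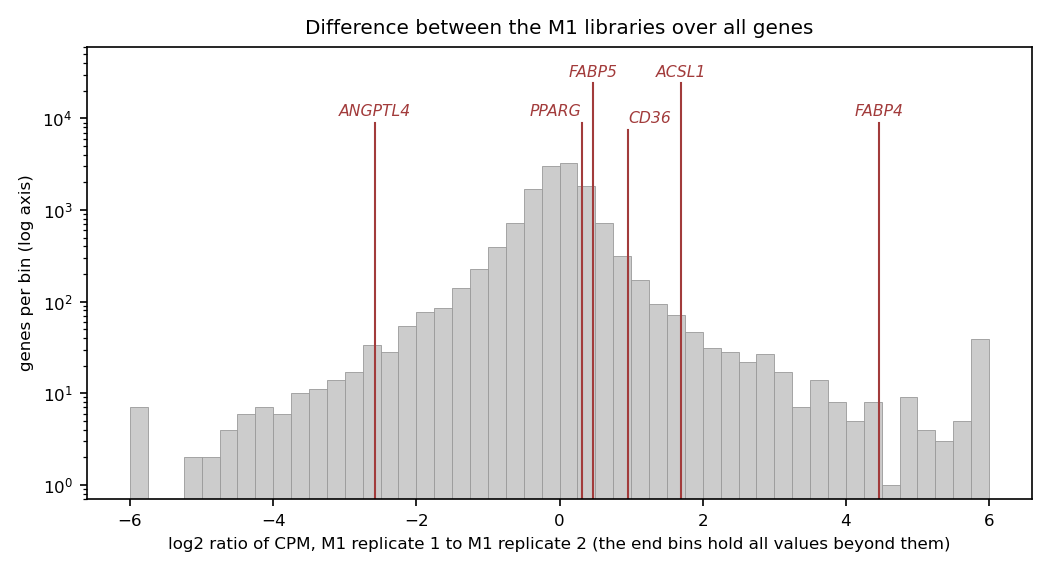
Genes with at least 100 counts in either M1 library, binned by the log2 ratio of CPM in M1 replicate 1 to replicate 2 (number of genes on a log axis), with the 6 members that reach this count marked. FABP4, 22.1-fold higher in replicate 1, lies in the right tail, and ANGPTL4, 5.97-fold higher in replicate 2, in the left.

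Genes of fat storage differed in both directions between the M1 libraries. CIDEC, a lipid droplet fusion protein of adipocytes, had 94 counts in M1 replicate 1 and 1 to 7 in the other libraries. FABP3, the heart fatty acid binding protein, had 61 and 0 to 7, and PLIN1, the adipocyte perilipin, 75 and 17 to 45. In the other direction PLIN4, a further perilipin, was at 4.01 CPM in M1 replicate 1 and 9.70 in replicate 2, HILPDA, an inhibitor of droplet lipolysis, was at 7.96 and 10.8, and PLIN2 had 10 and 40 counts. These genes were picked after their values were seen, and neither CIDEC nor FABP3 passed the filter for testing. Of the other adipocyte markers, ADIPOQ was at 0 in every library. LEP had 2 counts in M1 replicate 1 and 0 elsewhere, and CFD had 11 and 0 to 8. The part of an adipocyte-like share of cells in these values was not tested. Of all genes with at least 100 counts in M1, 4.61% were more than 2-fold higher in replicate 1 and 5.51% in replicate 2. Of 12 such genes for fatty acid uptake and activation these were 1 and 2. Among 8 lipases, partners and lipoprotein receptors they were 0 and 2, and among 12 genes for droplet coat and turnover 0 and 1. For 13 genes of fatty acid oxidation and 12 PPAR and RXR receptors and coregulators they were 0 and 0. Of 3 fatty acid binding proteins, FABP4 was the 1 so far apart.

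LPL belongs to a list of lipases, their partners and lipoprotein receptors. Of its 9 tested genes, edgeR called 4 higher and 1 (LPL) lower in M4 against M1, beside 20.7% of all genes called, and 3 in M4 against M3, all higher, beside 10.3%. These 5 and 3 calls became 2 and 1 with the libraries exchanged and 6 and 3 by DESeq2. The list had median log2 changes of 1.17 and 0.14 in these comparisons, beside -0.02 and -0.02 over all genes. In M2 against M1, 0 of the 9 were called by edgeR, beside 3.37% of all genes, and 1 by DESeq2. By edgeR, 5 had an unadjusted p under 0.05, beside 4303 of the 18431 genes. LIPG, the endothelial lipase, was at 18.2 and 19.8 CPM (M1), 21.7 and 22.3 (M2), 25.0 and 33.0 (M3) and 114 and 118 (M4). Its log2 fold change in M4 against M3, with the medium shared, was 2.01 ± 0.16 (SE, adjusted p = 0.00119). The call was kept with the libraries exchanged. Of the 9 tested genes, 4 were higher in every M3 and M4 library than in every M1 and M2 library, beside 10.6% of all genes. LIPG and LRP8, a receptor of the same list, were among them. So was VLDLR, a further receptor, whose lowest M3 or M4 library was at 9.48 CPM and highest M1 or M2 library at 9.47.

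Among the 15 tested genes of the lipid droplet, 1 fell in M2 against M1, 2 rose and 2 fell in M4 against M1, and 2 rose and 1 fell in M4 against M3, beside 3.37%, 20.7% and 10.3% of all genes called. With the libraries exchanged these 1, 4 and 3 calls became 0, 3 and 1, beside 0%, 8.46% and 4.50% of all genes. By edgeR, 0, 5 and 3 then had an unadjusted p under 0.05, beside 315, 5042 and 4419 of the 18431 genes. MGLL, which splits monoacylglycerols, was at 19.2 and 19.3 CPM (M1), 6.75 and 5.15 (M2), 63.0 and 29.0 (M3) and 115 and 85.9 (M4). It fell by 1.70 ± 0.35 on the log2 scale in M2 against M1 (SE, adjusted p = 0.0389), a call that was lost with the libraries exchanged at a change of -0.08, and it rose by 2.38 ± 0.36 in M4 against M1 (SE, adjusted p = 0.00280). LIPE, the hormone-sensitive lipase, was at 8.91 and 11.4 CPM in M3 and 38.6 and 32.6 in M4, a rise of 1.81 ± 0.29 (SE, adjusted p = 0.00852). DGAT2, which makes triacylglycerol, was at 14.2 and 13.1 CPM in M1, 6.88 and 12.0 in M3, and 2.90 and 4.06 in M4. It fell by 1.97 ± 0.31 in M4 against M1 (SE, adjusted p = 0.00333) and by 1.44 ± 0.31 in M4 against M3 (SE, adjusted p = 0.0204), and the latter call was lost on exchange. The list's median log2 changes in M4 were -0.42 against M1 and 0.14 against M3, beside -0.02 and -0.02 over all genes.

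Of 15 tested genes of fatty acid oxidation, edgeR called 1 in M2, 5 in M3 and 3 in M4 against M1, all lower, beside 1.11%, 5.51% and 11.2% of all genes called lower. In M3 against M2, M4 against M2 and M4 against M3, edgeR called 0, beside 4.15%, 13.9% and 10.3% of all genes. At an unadjusted p under 0.05 by edgeR were 3, 5 and 7 of the 15, beside 4133, 6884 and 6229 of the 18431 genes. DESeq2 called 1, 0 and 1. The list's medians against M1 were -0.31, -0.84 and -0.66, beside -0.04, -0.02 and -0.02 over all genes. PDK4, the kinase that spares glucose and a PPAR target, was at 27.0 and 18.2 CPM in M1 and 6.64 in each M2 library, a log2 fold change of -1.77 ± 0.28 (SE, adjusted p = 0.0166), lost on exchange at -0.44. ACADM, the medium-chain acyl-CoA dehydrogenase, was at 108 and 67.3 CPM in M1 and 40.9 and 41.9 in M4, a log2 fold change of -1.09 ± 0.21 (SE, adjusted p = 0.00779). With the libraries exchanged, edgeR called 0 genes of the list in M3 against M1 and 1 in M4 against M1, beside 1.19% and 8.46% of all genes. In M3 against M1, 4 then had an unadjusted p under 0.05, beside 3359 of the 18431 genes. CPT1A, which brings acyl groups into mitochondria, was at 59.5 to 197 CPM with no call.

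**Figure D4:**
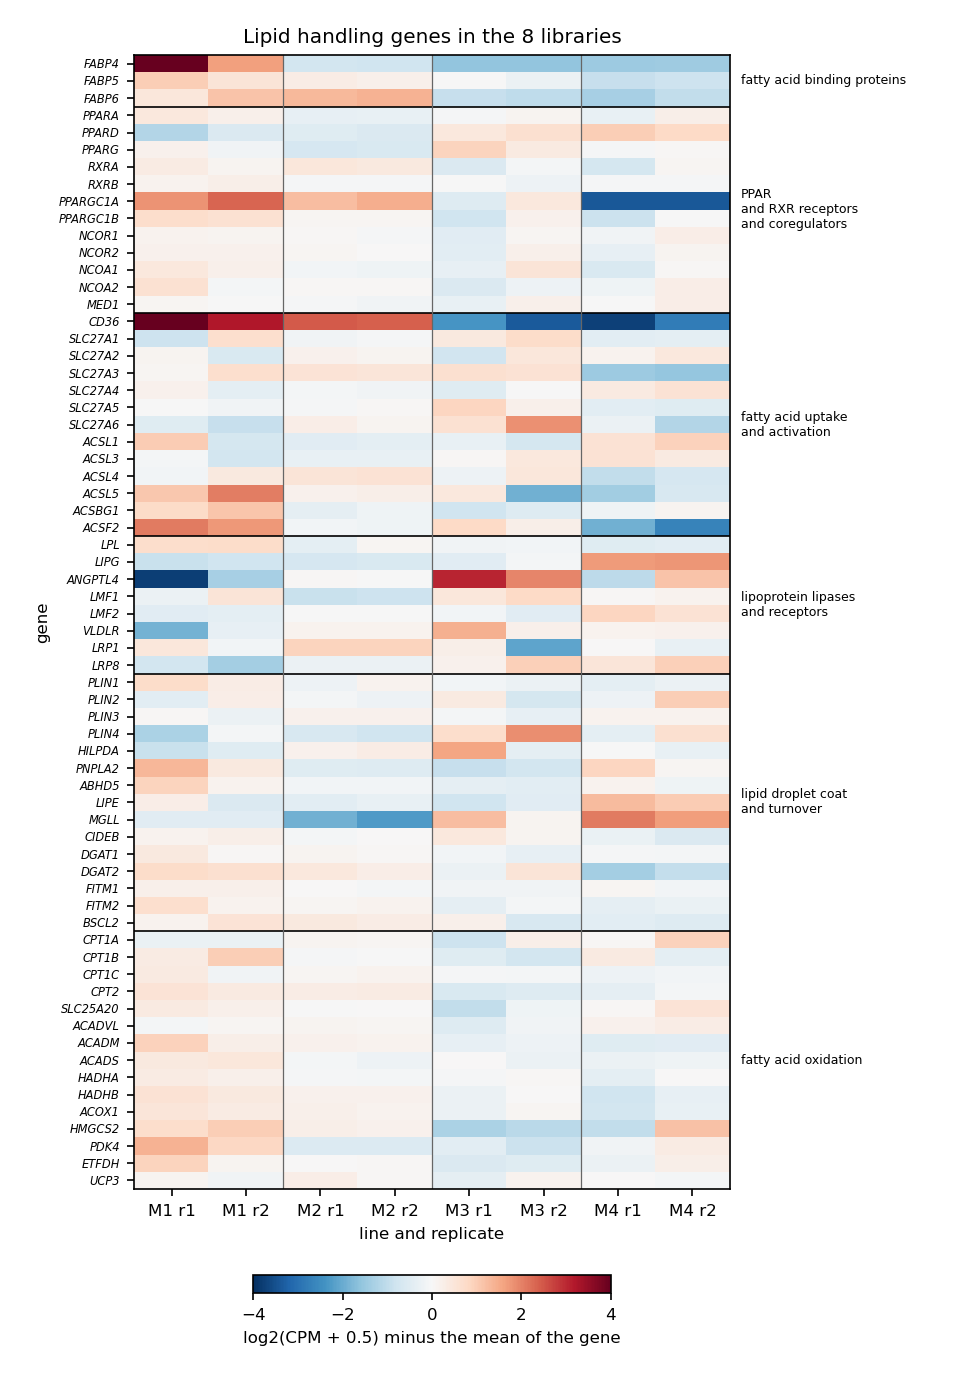
Tested genes of 6 lists for lipid handling, 1 gene left out (rows) in the 8 libraries (columns; r1 and r2 are the replicates), coloured by log2(CPM + 0.5) minus the mean of the gene over all libraries. CD36, FABP4, FABP6 and PPARGC1A are red in M1 and blue in M4, ANGPTL4 is red in M3, and the M1 libraries differ from each other in FABP4, ACSL1 and ANGPTL4.

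Some markers of other cell types differed between the lines. CD14, a macrophage marker that epithelia also express, was at 24.6 and 14.3 CPM in M1 and 2.03 and 1.06 in M4, a log2 fold change of -3.65 ± 0.52 (SE, adjusted p = 0.00228). CSF1R was 6.82-fold higher in M1 replicate 1, at 11.7 CPM, than in replicate 2, at 1.71, and was at 20.01 and 24.6 CPM in M4. KDR, an endothelial receptor, was at 2.33 and 3.04 CPM (M1), 0.187 and 0.0995 (M2), 1.76 and 1.18 (M3) and 0.0529 and 0.0128 (M4), with log2 fold changes of -4.19 ± 0.59 in M2 against M1 (SE, adjusted p = 0.0108), -6.20 ± 0.68 in M4 against M1 (SE, adjusted p = 0.000763) and -5.33 ± 0.66 in M4 against M3 (SE, adjusted p = 0.00385). VWF, a further endothelial marker, went the other way in M4 against M3. It had 0 and 1 counts in M3 and 26 and 9 in M4, a log2 fold change of 4.56 ± 1.24 (SE, adjusted p = 0.0427 from edgeR). Of the epithelial markers, KRT14 had log2 fold changes of 1.51 ± 0.31 in M2 against M1 (SE, adjusted p = 0.0383), -5.24 ± 0.37 in M4 against M3 (SE, adjusted p = 0.000948) and -2.37 ± 0.33 in M4 against M1 (SE, adjusted p = 0.00204), and EPCAM of 1.57 ± 0.26 in M4 against M1 (SE, adjusted p = 0.00379). The calls of CD14, KDR and VWF, and that of KRT14 in M2, were lost with the libraries exchanged. The part of any of these cell types in the levels of CD36 or FABP4 was not tested.

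The profiles most like those of FABP4 and CD36 over the 8 libraries were found by Pearson's r of log2(CPM + 0.5) among 14326 genes. These are descriptions over 8 points that share lines, media and, for FABP4, the weight of M1 replicate 1. Closest to FABP4 were CERS3 (r = 0.997), a ceramide synthase of the epidermal barrier, ASAH1 (0.992), the acid ceramidase, CYP4F8 (0.990), a fatty acid hydroxylase, HGD (0.989), an enzyme of tyrosine breakdown, and CCN5 (0.989), a secreted matricellular protein. CERS3 had levels of 3.01 and 0.768 CPM in M1 and of no more than 0.0995 elsewhere, whereas ASAH1 was at 134 and 89.9 in M1 and 64.9 to 75.3 elsewhere, a profile of the same shape with a small range. Closest to CD36 were KCTD1 (0.992), CYP4X1 (0.992), an orphan cytochrome P450, MAOA (0.991), monoamine oxidase A, SELENOP (0.987), a selenium transport protein, and TENT5B (0.984). MAOA was at 823 and 232 CPM (M1), 112.5 and 112.3 (M2), 5.68 and 1.19 (M3) and 1.18 in each M4 library. Of the members, CD36 had an r of 0.730 with FABP4 and FABP5 of 0.771, PPARG of -0.03, ACSL1 of 0.371 and ANGPTL4 of -0.836. By Spearman's rank correlation 88 of the 14326 genes were closer to FABP4 than CERS3, and 220 were closer to CD36 than KCTD1.

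**Figure D5:**
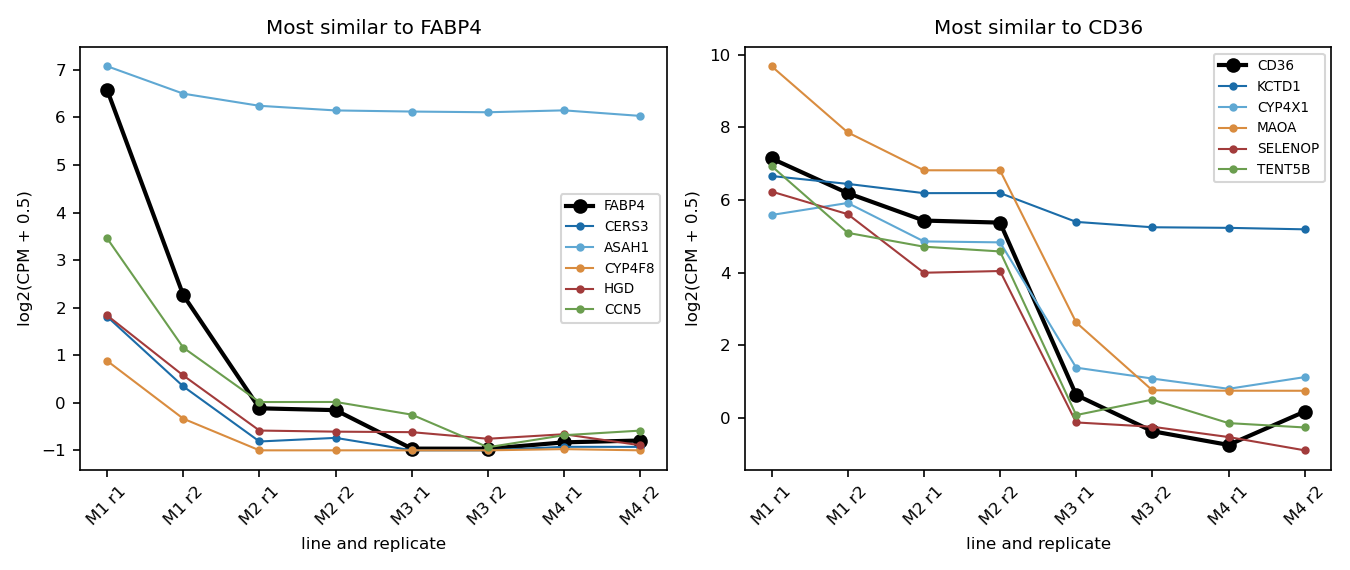
Level, as log2(CPM + 0.5), of FABP4 (left, black) and CD36 (right, black) and of the 5 genes most like each over the 8 libraries (r1 and r2 are the replicates). FABP4 and its 5 genes are higher in M1 replicate 1 than in M1 replicate 2 and lower in M2. CD36 and its 5 genes are lower in every M3 and M4 library than in any of M1 and M2, as is FABP4.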

How the data were processed

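Poly A+ RNA of 4 cell lines was sequenced with paired ends, 2 replicates each. The authors deposited expected counts, that is estimated counts per gene, made with STAR and RSEM on hg19 and GENCODE v19 after read trimming with Trimmomatic; Picard is also named in the processing notes, and versions and strand use are not given in the sources used here. The counts are not normalized; 12.8% are not whole, and they were rounded. Of 56632 genes 53454 were matched to a symbol, and 2 of 106 genes on the lists were not matched. Positions are from GENCODE 44 mapped to GRCh37.

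edgeR 4.0.16 (R 4.3.3; quasi-likelihood F test, TMM, filterByExpr, robust, 1 coefficient per line) was fitted over 8 libraries and 18431 genes, with Benjamini-Hochberg adjustment over all of them; standard errors (SE) were derived from each F statistic. CPM uses TMM-scaled totals, which moved a member's CPM by at most 10.8%. DESeq2 1.42.0 was an alternative. The rest was done in Python 3.11.15 with scipy 1.17.1, numpy 2.4.6, matplotlib 3.10.9 and pandas 2.3.3. With totals of 69669945 to 107350288, 3 counts correspond to 0.0264 to 0.0426 CPM. Nothing in the labels says whether the biological replicates were separate cultures, so p-values measure the spread between these samples.

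Named were all 8 members; from each list, members apart, for M2 against M1, M4 against M3 and M4 against M1, the called gene with the largest rise and that with the largest fall, with at least 100 counts in each library of the higher line; the 5 genes most like FABP4 and CD36; and HRAS. Other genes were named after their values were seen, and 1 gene that the rule names is not reported here. The members, lists and motifs were chosen with earlier results of these data known. Alternatives were exchanged libraries, each replicate left out, other call rules, DESeq2, a replicate block, only the 2 lines compared, and other size factors or low-count filters.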

Additional observations from a re-analysis of the deposited data

How the results depend on the processing

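Over the 6 comparisons, the count of called genes among the 7 stayed within 1.5 times with median-of-ratios size factors, the stricter filter and the replicate block, which left it at 0, 2, 3, 2, 2 and 0 (M2, M3 and M4 against M1, M3 and M4 against M2, M4 against M3). The replicate numbers share no stated origin, and the differences between replicates 1 and 2 correlated from -0.0864 to 0.216 between lines.

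With no filter on low counts the count was 2 in M2 against M1, 4 in M4 against M2 and 3 in M4 against M3. By a rule of more than 2-fold in both replicates it was 2, 4 and 1 in these, and with no limit on the fold, 1 in M4 against M3. DESeq2 gave 1 in M4 against M3, and a fit of the 2 lines 1 there and 1 in M3 against M1. Exchange of the libraries gave 1 in M3 against M1 and 1 in M3 against M2. Leaving out each replicate gave 0 to 1 in M2 against M1, 2 to 4 in M3 against M1, 2 to 4 in M4 against M1, 0 to 2 in M3 against M2, 1 to 2 in M4 against M2 and 0 in M4 against M3. Without M1 replicate 2, ACSL1 was called in M2 and M3 against M1, and without M1 replicate 1 in M4 against M1. Of 526 refitted fold changes 24 turned in sign, none of them in a comparison where the gene was called.

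With the libraries exchanged these were PLIN2 at 0.78 (M2 against M1), 0.50 (M3 against M1) and -0.28 (M3 against M2), LPL at 0.39 (M2 against M1) and -1.64 (M3 against M2), PPARG at 0.21 (M4 against M1) and ACSL1 at 0.039 (M3 against M2). With the replicate block PLIN2 was at 0.10 (M3 against M1). With a replicate left out, PLIN2 ran from -0.96 to 1.04 (M2 against M1), -4.56 to 1.25 (M3 against M1), -0.44 to 2.47 (M4 against M1), -4.28 to 1.18 (M3 against M2), -0.16 to 2.19 (M4 against M2) and -0.36 to 5.71 (M4 against M3). ACSL1 ran from -1.42 to 0.28 (M2 against M1), -1.49 to 0.20 (M3 against M1), -0.24 to 1.47 (M4 against M1) and -0.27 to 0.10 (M3 against M2). Other ranges were -0.16 to 0.17 for PPARG (M4 against M1), -0.74 to 1.84 for LPL (M3 against M2), -2.72 to 0.27 for CD36 (M4 against M3) and -1.06 to 1.14 for ANGPTL4 (M4 against M2). The cause was not tested. PLIN2 had 1 to 89 counts per library, LPL 0 to 54 and FABP4 outside M1 1 to 43.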
